A study of Homo sapiens with 4 samples.

Results

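The regions described here carried an H3K27ac peak in both ovarian cancer lines of the study, OVCAR-3 and SKOV-3, and in the prostate cancer line DU-145, but none in the colon cancer line COLO-205. They were chosen by peak overlap alone: an OVCAR-3 peak was taken when it overlapped a DU-145 peak and a SKOV-3 peak by at least 1 base and overlapped no COLO-205 peak. This held for 1963 of the 76093 OVCAR-3 peaks, out of 251138 peaks in the 4 lists together. They overlapped 1878 of the 75468 DU-145 peaks (2.49%) and 1949 of the 14001 SKOV-3 peaks (13.9%), so that the shortest list set the upper limit of the set. The 4 lines are established human cancer cell lines grown untreated in serum-containing medium, each in its own medium except that OVCAR-3 and COLO-205 both received an RPMI medium. Each was profiled once by chromatin immunoprecipitation with the same antibody against H3K27ac. With 1 library per line there is no replicate error and no test between lines, so every difference given here describes these 4 libraries, and the intervals are exact Clopper-Pearson 95% intervals that cover counting error only.

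Acetylation of lysine 27 on histone H3 marks nucleosomes beside active promoters and active enhancers. Promoters of broadly used genes tend to carry the mark in many cell types and often lie in CpG islands, whereas enhancers are used by fewer cell types and are bound by combinations of lineage factors and of factors that answer to signals, such as AP-1 and the TEAD partners of YAP and TAZ. A peak caller reports a region when the tags at its summit exceed the local background, so a region without a peak has too few tags over background to be called and need not lack the mark.

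The libraries differed in ways that bear on what counts as missing. The number of tags, computed from the lowest background in each list, was 34200000 in OVCAR-3, 36000000 in DU-145, 22400000 in SKOV-3 and 29800000 in COLO-205, and COLO-205 had the most peaks, 85576. Peaks were spread unevenly over chromosomes: 12078 of the COLO-205 peaks were on chromosome 13 and 10794 of the DU-145 peaks were on chromosome 14. OVCAR-3 had 10559 of its peaks on chromosome 3, and SKOV-3 had 65 peaks on chromosome 7. The labels of the lines were set beside marker genes. COLO-205 had a peak within 1 kb of a start of 4 of 9 colon markers (CDX2, HNF4A, VIL1 and LGALS4), against 1, 1 and 0 in OVCAR-3, DU-145 and SKOV-3. OVCAR-3 had one at all 8 markers of ovary and Mullerian duct, SKOV-3 at 3 of 8 and DU-145 at 5 of 8, as did COLO-205, and none of 5 blood markers had a peak in any line. Of 7 prostate markers DU-145 had 2, fewer than the 3 of COLO-205.

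The sequences below are examples from the set, read from the GRCh37 genome. The first 4 lie at promoters, and are the 120 bases upstream of the annotated start on the strand of the gene, with CpG dinucleotides in capitals. KIRREL1, a nephrin-like adhesion protein, and RDX, the actin-membrane linker radixin, are promoters among the 12 strongest of the set, and ZNF471 and ZNF583 belong to a zinc finger cluster described further on. They are at chr1:157962943-157963062 (plus strand), chr11:110167438-110167557 (minus strand), chr19:57019099-57019218 (plus strand) and chr19:56915263-56915382 (plus strand).
KIRREL1: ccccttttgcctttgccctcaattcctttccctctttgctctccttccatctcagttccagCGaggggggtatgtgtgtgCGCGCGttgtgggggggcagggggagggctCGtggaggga
RDX: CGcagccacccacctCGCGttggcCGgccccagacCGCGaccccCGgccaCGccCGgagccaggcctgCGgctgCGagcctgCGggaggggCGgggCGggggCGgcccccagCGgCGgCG
ZNF471: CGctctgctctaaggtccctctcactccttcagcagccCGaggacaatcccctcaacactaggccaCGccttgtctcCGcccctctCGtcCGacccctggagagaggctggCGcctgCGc
ZNF583: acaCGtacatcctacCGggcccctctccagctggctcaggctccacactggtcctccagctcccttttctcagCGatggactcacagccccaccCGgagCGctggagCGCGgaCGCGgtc
The RDX window held 18 CpG dinucleotides, ZNF583 9, ZNF471 8 and KIRREL1 5. The windows of KIRREL1 and RDX lie inside the peak of OVCAR-3, and those of ZNF471 and ZNF583 begin a few bases before it.
The last 4 are from distal peaks and show the AP-1 letters TGACTCA or the reverse complement TGAGTCA in capitals, with 20 bases on each side, all on the plus strand. They are the strongest distal peaks of the set with these letters within 150 bases of the OVCAR-3 summit whose windows hold no exon, at chr17:40830154-40830200, chr14:35834833-35834879, chr20:45946153-45946199 and chr9:35727823-35727869. Each is named by its nearest protein-coding gene.
PLEKHH3: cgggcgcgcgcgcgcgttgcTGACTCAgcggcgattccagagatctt
NFKBIA: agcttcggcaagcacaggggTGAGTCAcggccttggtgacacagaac
ZMYND8: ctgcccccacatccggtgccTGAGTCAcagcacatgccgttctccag
TLN1: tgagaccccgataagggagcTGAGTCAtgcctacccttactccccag
The NFKBIA peak lay 37945 bp from the start of the gene for the NF-kB inhibitor IkB-alpha, with a fold enrichment of 13.9 in OVCAR-3, 8.94 in DU-145 and 7.90 in SKOV-3. The TLN1 peak lay in an intron, 4111 bp from the nearest start of talin 1, which couples integrins to actin, with 12.1, 4.45 and 9.02.

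An absent COLO-205 peak was less frequent the more of the other lines shared the region. Of all OVCAR-3 peaks, 60902 (80.0%) overlapped no COLO-205 peak. Among those shared with DU-145 it was 14973 of 24384 (61.4%), among those shared with SKOV-3 2781 of 8416 (33.0%), and among the 7141 shared with both 1963, or 27.5% (26.5% to 28.5%, counting error only). With all lists cut to equal numbers of peaks it was 1770 of 4053 (43.7%), and with −log10 q of at least 10 asked of the 3 lines and not of COLO-205 it was 813 of 4341 (18.7%). With the 3 lines held to peaks above their own median −log10 q it was 777 of 4238 (18.3%), a setting chosen after seeing the data. The other 5178 were common to all 4 lists. For comparison, 4233 OVCAR-3 peaks were shared with DU-145 and COLO-205 and missing in the short SKOV-3 list, and 457 were shared with SKOV-3 and COLO-205 and missing in DU-145.

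Of the peaks missing in COLO-205, somewhat more lay at promoters than in distal regions, in a proportion that moved with the length of the lists. Of the 1963, 1086 (55.3%, 53.1% to 57.5%) lay no more than 1 kb from the nearest start of a protein-coding gene and 877 (44.7%) lay farther away, here called distal. With all lists cut to equal numbers of peaks, 1432 of 1770 (80.9%) were at promoters and 338 distal. The promoter share was 87.0% (86.0% to 87.9%) among the peaks common to all 4 lists, 64.0% (62.5% to 65.4%) among those missing in SKOV-3, 37.6% (33.2% to 42.3%) among those missing in DU-145 and 23.5% among all OVCAR-3 peaks, so the set was less promoter-bound than the common peaks and more so than the OVCAR-3 list as a whole. Read the other way, 1086 of 5589 promoter peaks of the 3 lines had no COLO-205 peak (19.4%, 18.4% to 20.5%), against 877 of 1552 distal ones (56.5%, 54.0% to 59.0%). Summits lay in an exon in 638 cases, in an intron in 907 and between genes in 418. Among the distal peaks 498 summits were intronic, and 109 peaks (12.4%) were within 1 kb of the start of an annotated lncRNA, compared with 186 of the 675 distal peaks common to all 4 lists (27.6%).

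The share missing in COLO-205 fell with the strength of the OVCAR-3 peak, and the gap between promoters and distal regions stayed. Strength was the −log10 q of the OVCAR-3 peak, cut into 10 classes of equal size over the 7141 shared peaks. In promoters the missing share was 45.0% (39.7% to 50.4%) in the lowest class and 5.06% (3.49% to 7.07%) in the highest. In distal regions it was 70.5% (65.5% to 75.2%) and 31.3% (21.6% to 42.4%). In each of the 10 classes the distal share was above the promoter share, and even in the highest class, with a −log10 q of 147 or more, 26 of 83 distal peaks had no COLO-205 peak. This −log10 q was not used by the rule beyond the authors' threshold for calling a peak.

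**Figure D1:**
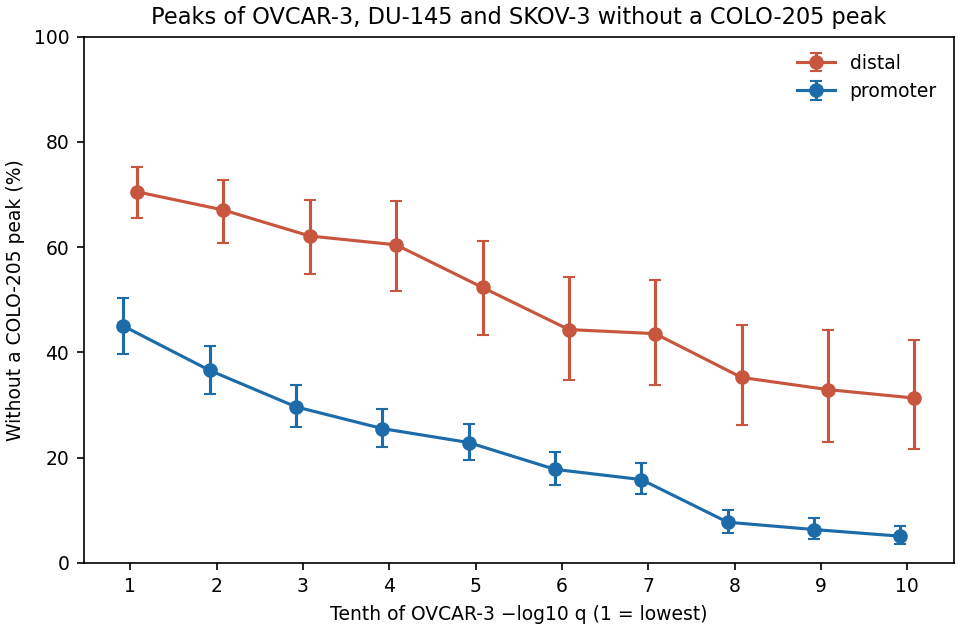
Percentage of the OVCAR-3 peaks shared with DU-145 and SKOV-3 that overlap no COLO-205 peak (vertical axis), by class of the OVCAR-3 −log10 q, from 1 (lowest) to 10 (horizontal axis), for promoter and distal peaks; points are shares in 1 set of libraries and bars are exact 95% intervals for counting error. The distal points fall from 70.5% to 31.3% and the promoter points from 45.0% to 5.06%, and the distal points are higher in each class.

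The peaks ranked high in the long OVCAR-3 and DU-145 lists and in the middle of the short SKOV-3 list. The median fold enrichment over the local background was 7.05 in OVCAR-3 (middle 50% of peaks 5.11 to 9.97), 5.09 in DU-145 (4.03 to 6.63) and 5.26 in SKOV-3 (4.38 to 6.39). Fold enrichments are not scaled between libraries, so each line is given by the rank within its own list, which also depends on the length of that list (14001 peaks in SKOV-3). By −log10 q the median member stood at the 81.8th percentile of the OVCAR-3 list, the 85.9th of the DU-145 list and the 50.1st of the SKOV-3 list. The peaks common to all 4 lists had a median of 9.43 in OVCAR-3 and stood at the 93.6th, 92.8th and 70.0th percentiles, and the whole OVCAR-3 list had a median fold of 5.37. Median width in OVCAR-3 was 532 bp, against 853.5 bp for the common peaks and 316 bp for the list.

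The rank of a peak within its own list varied from line to line. The DU-145 summit lay a median of 60 bp from the OVCAR-3 summit and the SKOV-3 summit a median of 45 bp, and they were within 150 bp in 1366 and 1572 of the 1963 peaks. These distances are bounded by the rule, which asks for overlapping peaks of a median width of 532 bp in OVCAR-3, 747 bp in DU-145 and 280 bp in SKOV-3. Over the same peaks the Spearman correlation of the −log10 q percentiles was 0.15 between OVCAR-3 and DU-145. It was 0.26 between OVCAR-3 and SKOV-3 and 0.17 between DU-145 and SKOV-3. These correlations are descriptions over peaks that share the same 3 libraries, and neighbouring peaks are not independent.

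How far COLO-205 stood from a call was described through its nearest peaks and through depth. The median distance to the nearest COLO-205 peak was 8808 bp. A COLO-205 peak lay within 350 bp of 213 members (10.9%), within 1 kb of 413 (21.0%) and within 10 kb of 1031 (52.5%), while 191 (9.73%) had none within 100 kb. The median was 6163 bp for distal members and 12164.5 bp for promoter members, but at short range the order was the other way, with 13.9% of promoter and 7.07% of distal members within 350 bp. Since the number of tags differs between libraries, the pileup of tags at each summit was recovered from the fold enrichment and −log10 p, and the lowest of the 3 lines was scaled to the tags of COLO-205. The median scaled value was 34.0 tags, and 1560 (79.5%) were above 24 tags, the median of the called COLO-205 peaks. When they were also scaled by the median pileup of the peaks common to all 4 lists, the median was 23.8 and 965 (49.2%) were above 24. The members were called peaks in the 3 lines to begin with, and the local background of COLO-205 at these places is unknown, so these values do not say that a peak would have been called.

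The rule turns on small overlaps at its edge. Just inside it, the peak nearest SNX29 at chr16:12070744-12070957 overlapped SKOV-3 by 10 bases, and the peak nearest PPIL6 at chr6:109761411-109761823 by 11. Just outside it, a peak nearest MEMO1 at chr2:32235202-32236357 was left out by 6 bases of COLO-205 overlap, and one nearest BRD3OS at chr9:136890580-136891217 by 9. Only 2 of the common peaks had under 10 bases of overlap with COLO-205.

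The 12 peaks with the highest summed rank in the 3 lists, with at most 1 per nearest gene, were 7 promoters and 5 distal regions. The first was at the promoter of TTC9C at chr11:62495519-62496114, with a fold enrichment of 20.4 in OVCAR-3, 8.68 in DU-145 and 14.2 in SKOV-3. It had a COLO-205 peak 598 bp away, so its gene is among those whose neighbourhood carried the mark in COLO-205 too. The promoter of FERMT2, which encodes kindlin-2, an activator of integrins, lay at chr14:53417087-53418560 with 27.9, 11.4 and 11.3. Its nearest COLO-205 peak was 158938 bp away. That of ARHGEF17, a guanine nucleotide exchange factor, lay at chr11:73018667-73022993 and reached 21.4, 6.83 and 7.23, with the nearest COLO-205 peak at 36804 bp.

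KIRREL1 at chr1:157962260-157964535 reached 20.6, 7.36 and 8.20 with the nearest COLO-205 peak at 36052 bp. RDX at chr11:110166490-110167787 reached 12.0, 7.46 and 8.86 with it at 133130 bp. The nearest COLO-205 peak was thus at least 36052 bp away from these 4 of the 7 promoters. The others were those of CFAP410, a protein of cilia, at chr21:45758850-45759658 with 15.2, 8.68 and 8.82, and of PNMA1 at chr14:74180090-74181121 with 9.40, 6.24 and 8.90, where it was 10269 bp and 4576 bp away.

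Among the distal regions, the strongest lay at chr2:28022436-28023187, in an intron shared by MRPL33 and RBKS. Its fold enrichment was 27.1 in OVCAR-3, 14.5 in DU-145 and 15.3 in SKOV-3, and its summits in DU-145 and SKOV-3 were 12 bp and 2 bp from the OVCAR-3 summit. The region at chr14:62029817-62031859, in an intron of the protein-coding gene ENSG00000258989, had 13.7, 12.4 and 16.8, the highest SKOV-3 fold of the whole set. A COLO-205 peak lay 386 bp from it. In 11 of the 12 the unscaled OVCAR-3 fold was the highest of the 3, whereas by percentile within its own list OVCAR-3 ranked highest only at ARHGEF17 and KIRREL1.

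The remaining distal ones were in an intron of SPC24, which encodes a kinetochore protein, at chr19:11253391-11254694 with 12.4, 5.23 and 9.44, in an exon of the microRNA host gene MIR130AHG near YPEL4 at chr11:57405004-57407809 with 15.4, 8.55 and 7.73, and between genes near VXN at chr8:67434243-67434943 with 12.0, 6.73 and 9.54. Their nearest COLO-205 peaks were 11443, 13714 and 19218 bp away.

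**Figure D2:**
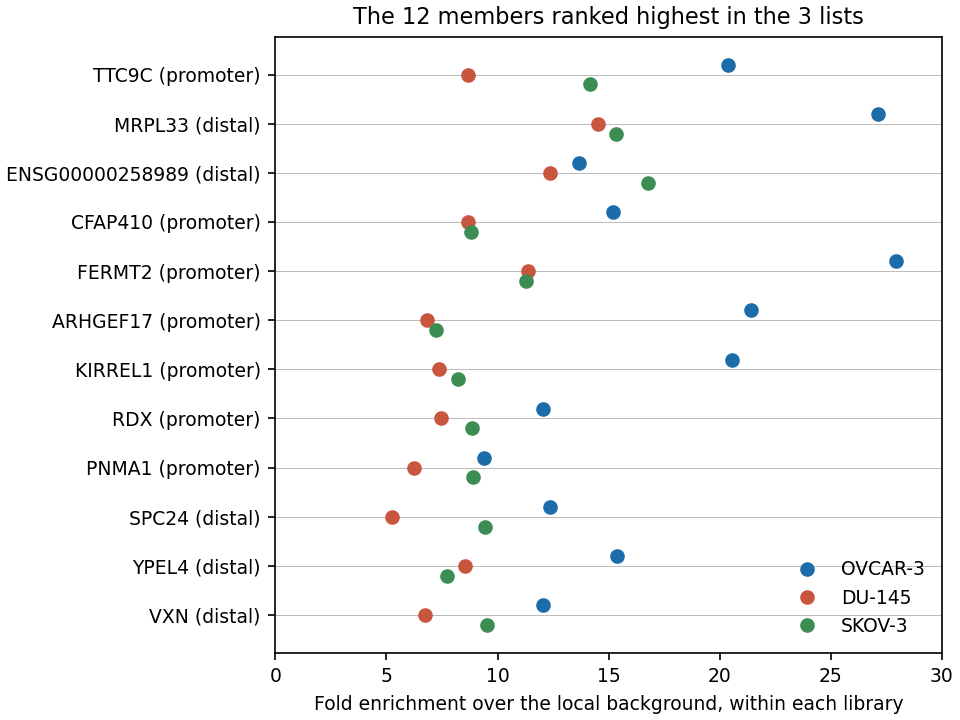
Fold enrichment over the local background (horizontal axis, linear) of the 12 peaks with the highest summed rank, named by nearest gene with their class; each point is the value of 1 library. The OVCAR-3 point is the right-most in each row but that of ENSG00000258989, where SKOV-3 reaches 16.8; folds are not scaled between libraries.

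Some genes were surrounded by several of these peaks. Of the 1502 protein-coding genes nearest to at least 1 member, 1224 had 1 member and 11 had 6 or more. ENSG00000258989, on chromosome 14 beside HIF1A, had 11, all distal, over 44561 bp, with OVCAR-3 folds from 4.27 to 13.7. LIF, an IL-6 family cytokine, had 10, all distal, over 51084 bp, with folds from 5.91 to 15.6 in OVCAR-3, 3.80 to 8.44 in DU-145 and 4.21 to 7.33 in SKOV-3. At LIF the promoter itself had a peak in all 4 lines, and 9 of the 10 members formed a locus of 34337 bp in which COLO-205 had 6 peaks that overlapped none of them.

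ITGA3, the integrin alpha-3 chain that binds laminin, had 8 members over 15301 bp, 2 of them promoter peaks. TGIF1, a repressor of TGF-beta responses, had 8 over 197542 bp. MED15, a Mediator subunit, and RAD51B, a DNA repair gene, had 7 each, and IRF2BPL, NANOS3, PTTG1IP and RUNX1, a hematopoietic transcription factor, had 6. TSPAN14, a tetraspanin that also had 6, came after these 10 in alphabetical order. Of these 11 genes, ITGA3, TGIF1, MED15, LIF, IRF2BPL, RUNX1 and TSPAN14 had a COLO-205 peak at a start, whereas ENSG00000258989, RAD51B and PTTG1IP did not and NANOS3 had none in any line. PTTG1IP stood apart in that all 6 of the peaks that the 3 lines shared near it were missing in COLO-205, which had no peak for 17898 bp or more from any of them.

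Joined at distances of up to 12.5 kb, as is done to build enhancer clusters, the 1963 peaks formed 1617 loci, of which 1380 held 1 peak and 63 held 3 or more with 235 peaks. In 40 of the 63 no COLO-205 peak lay inside the locus.

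Over genes, 1163 of 19794 protein-coding genes (5.88%) had a member within 1 kb of a start, and 1502 (7.59%) were nearest to one. Of the 1163, 399 (34.3%) had a COLO-205 peak at a start all the same, beside the member or at another start, which left 764 genes (3.86% of all) whose promoters were acetylated in the 3 lines and had no COLO-205 peak at any start. Of the 877 distal peaks, 719 were nearest to a gene with an OVCAR-3 peak at a start, 597 (68.1%) to a gene with a COLO-205 one, and 85 to a gene with promoter peaks in the 3 lines and none in COLO-205. Over all 19794 protein-coding genes, 11768 had an OVCAR-3 peak at a start and 9665 a COLO-205 one.

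Gene lists were counted against these shares, without a test. Among 26 genes of caveolae and the contractile cytoskeleton, 6 had a member at a start (23.1% against 5.88%): ACTN1, ACTN4, CAV2, FHL2, FLNA and TPM4. ACTN1, alpha-actinin 1, which crosslinks actin, had 8.04, 6.71 and 6.42 in OVCAR-3, DU-145 and SKOV-3. FLNA, filamin A, had 18.4, 4.52 and 7.92, and FHL2, a LIM protein of focal adhesions, had 3.90, 4.59 and 9.61. Only FLNA and CAV2, caveolin 2, had no COLO-205 peak at any start (7.69% of the list against 3.86%), and FHL2 and ACTN1 had a COLO-205 peak 42 bp and 372 bp from the member.

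For the TGF-beta pathway the count was 5 of 27 (18.5%): BMPR2, LTBP3, SMAD4, SMAD7 and TGIF1. SMAD4, the partner shared by all receptor-regulated SMADs, had 9.38, 4.59 and 7.10, and was the only one of the 5 without a COLO-205 peak at any start, the nearest being 61705 bp away. LTBP3, which binds latent TGF-beta, had 12.1, 4.12 and 5.74, and TGIF1 had 10.1, 6.63 and 5.86. The members at TGIF1 and SMAD7 had COLO-205 peaks 381 bp and 407 bp away.

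Among 28 genes of the YAP and TEAD pathway, 4 had a member at a start (14.3%), ARHGEF17, ASAP1, CCN2 and WWTR1, and 3 of them had no COLO-205 peak at any start. CCN2, a secreted matrix protein and a textbook target of YAP and TEAD, had 7.89, 3.44 and 5.88, with the nearest COLO-205 peak 474575 bp away. WWTR1, which encodes the coactivator TAZ, had 16.0, 9.08 and 7.47, but a COLO-205 peak lay 532 bp from it. ARHGEF17 is described above. Its member and that of CCN2 thus differ from the one at WWTR1 in that nothing was called nearby in COLO-205.

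For integrins and laminins the count was 4 of 30 (13.3%), among them ITGA3, ITGB2 and LAMB2, and of the 4 ITGA3 alone had a COLO-205 peak at a start. ITGB2, the beta-2 integrin chain best known from leukocytes, had 6.92, 7.59 and 9.47. ITGA3 had 10.2, 5.56 and 5.26.

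For NF-kB and inflammatory cytokines it was 3 of 24 (12.5%), and all 3 lacked a COLO-205 peak at any start (12.5% against 3.86%). RELB, an NF-kB subunit of the alternative pathway, had 7.56, 5.38 and 6.26. IL1R1, the receptor of interleukin 1, had 8.84, 5.55 and 4.71. CXCL1, a chemokine that attracts neutrophils, had 13.9, 2.20 and 5.83, so its DU-145 peak was near the low end of the values in the set. A further 4 genes of this list, CXCL2, LIF, NFKBIA and RELA, were nearest to a distal member.

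Receptor tyrosine kinases and ERK feedback had 3 of 30 (10%): DUSP5 with 7.82, 7.43 and 3.88, DUSP1 with 7.95, 5.08 and 4.30, and FGFR1 with 5.92, 4.95 and 4.59. DUSP1 and DUSP5 are phosphatases of MAP kinases and FGFR1 is a receptor of fibroblast growth factors. Only FGFR1 had no COLO-205 peak at a start. Other lists lay near or below the 5.88%. The mesenchymal list had 1 of 21, the RNA-binding protein QKI, with 15.1, 5.38 and 13.9 and the nearest COLO-205 peak 336184 bp away. Cyclins, CDKs and p53 targets had 2 of 26, CDKN1C and GADD45B, the Mullerian and ovarian list 2 of 23, PAX8 and LHX1, the predicted master regulators 1 of 14, SETDB1, and the epithelial list 1 of 25, SPINT1. CDKN1C and GADD45B had no COLO-205 peak at a start, whereas PAX8, LHX1, SETDB1 and SPINT1 each had one. A COLO-205 peak lay 655 bp from the CDKN1C member all the same.

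No gene of the AP-1 family (of 14) or of the colon and intestinal lineage (of 26) had a member at a start, although FOS, FOSL2 and JUNB were nearest to distal ones. Cytosolic ribosomal proteins, taken as always active, had 4 of 80 (5%), RPL36, RPL7, RPS18 and RPS25, and olfactory receptors, taken as inactive, had 0 of 381. These counts depend on how many genes of a list carried the mark at all. Of the genes with a promoter peak in each of the 3 lines, 784 of 5621 (13.9%) had none in COLO-205. On that base it was 4 of 13 for NF-kB and inflammatory cytokines (30.8%, 9.09% to 61.4%), with NFKB2 as the fourth, 3 of 11 for integrins and laminins (27.3%, 6.02% to 61.0%), 3 of 16 for YAP and TEAD (18.8%) and 2 of 13 for caveolae and contractile cytoskeleton (15.4%). It was 1 of 4 for the mesenchymal list (25%), 2 of 12 for cyclins, CDKs and p53 targets (16.7%), 1 of 14 for receptor tyrosine kinases and ERK feedback (7.14%) and 1 of 17 for TGF-beta (5.88%). It was 0 of 7 for the AP-1 family, 0 of 7 for the predicted master regulators, 0 of 8 for the epithelial list, 0 of 3 for the Mullerian and ovarian list, 0 of 2 for the colon and intestinal list and 2 of 47 for cytosolic ribosomal proteins (4.26%, 0.52% to 14.5%). The interval of each of these lists holds the 13.9%.

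**Figure D3:**
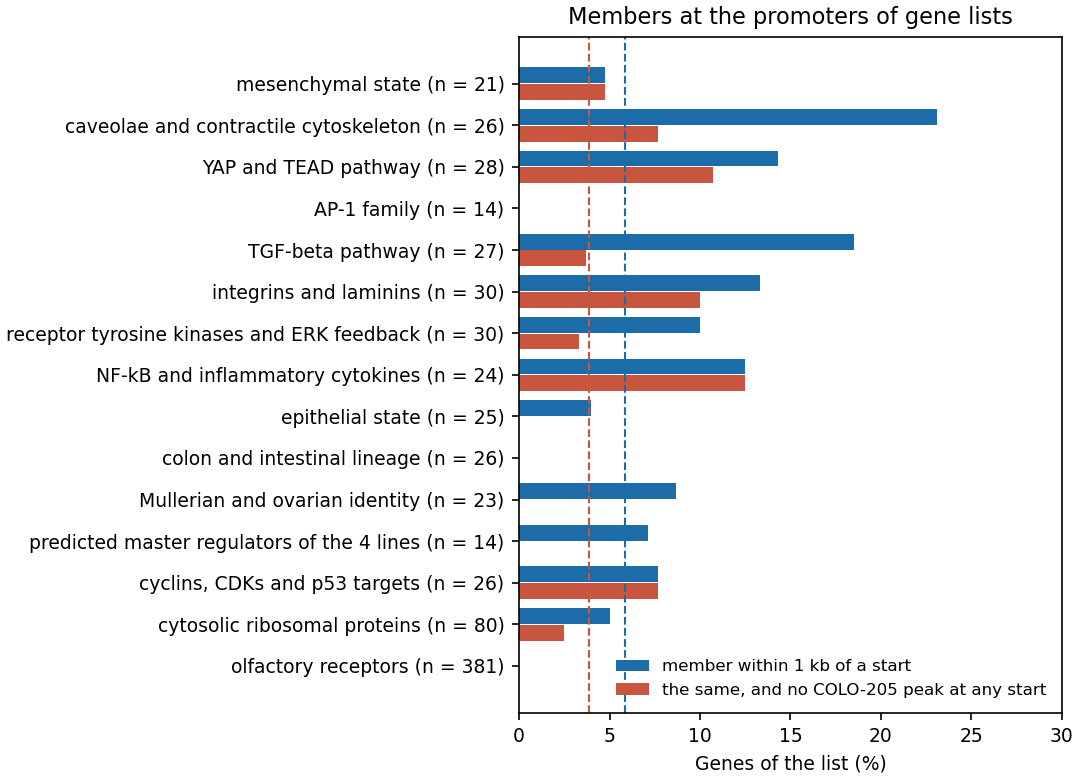
Percentage of the measured genes of each list (horizontal axis; number of genes in parentheses) with a member within 1 kb of a start (blue) and, of all genes of the list, those that also had no COLO-205 peak at any start (red); dashed lines give the same percentages over all protein-coding genes, 5.88% and 3.86%. Caveolae and contractile cytoskeleton has the longest blue bar, 23.1%, and NF-kB and inflammatory cytokines the longest red bar, 12.5%.

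A group by position was found after the values were seen, and is a description only. Zinc finger genes of chromosome 19, most of which encode KRAB zinc finger repressors in tandem clusters, made up 36 of the 784 genes above. Of 76 of them with a promoter peak in each of the 3 lines, 36 (47.4%, 35.8% to 59.2%) had none in COLO-205, against 59 of 334 other genes of chromosome 19 (17.7%) and 10 of 113 zinc finger genes on other chromosomes (8.85%). Some of these genes share a promoter peak, such as ZNF569 and ZNF570, so they are not independent and the interval is too narrow. Over all 263 zinc finger genes of chromosome 19, 159 had a promoter peak in OVCAR-3, 164 in DU-145, 125 in SKOV-3 and 87 in COLO-205. In the 35 with a member and no COLO-205 peak at any start, the fold enrichment ranged from 3.17 to 21.9 in OVCAR-3 with a median of 8.89, from 3.07 to 9.58 in DU-145 with a median of 5.27, and from 3.46 to 10.9 in SKOV-3 with a median of 5.15. Their nearest COLO-205 peak was between 2737 and 111113 bp away. Some of these genes, such as ZNF850, lay in the 10-Mb window from 30000001 to 40000000 of chromosome 19. There 35 of all 74 shared peaks (47.3%) were missing in COLO-205. OVCAR-3 had 2739 peaks in it, against 528 in DU-145, 114 in SKOV-3 and 363 in COLO-205. Its other genes HSPB6, PROSER3, ARHGAP33, THAP8 and WDR62 also had promoter peaks in the 3 lines and none in COLO-205. The part of position in the zinc finger share was not tested.

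A cluster at the end of the long arm is an example. Between 56861048 and 57100552 of chromosome 19 COLO-205 had no peak, whereas OVCAR-3 had 9, DU-145 7 and SKOV-3 8, and the 6 members there were the promoters of ZNF582, ZNF583, ZNF667, ZNF471, ZFP28 and ZNF470. ZNF471 was the strongest with 17.2, 6.19 and 10.9, followed in OVCAR-3, but not in the other lines, by ZNF583 with 9.80, 4.11 and 7.89. ZFP28 had 8.89, 3.07 and 9.37, and ZNF667 was the weakest in OVCAR-3 with 4.97, 5.19 and 4.41. As the printed ZNF471 and ZNF583 windows show, these promoters hold CpG dinucleotides. Over the promoter peaks of the zinc finger genes without COLO-205 the median ratio of observed to expected CpG in the 301 bases around the summit was 0.83, against 0.73 for those with a COLO-205 peak. For the other promoter peaks of chromosome 19 it was 0.81 without and 0.86 with a COLO-205 peak. The median GC content of these 4 groups, in the same order, was 63.8%, 67.1%, 66.3% and 72.8%.

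**Figure D4:**
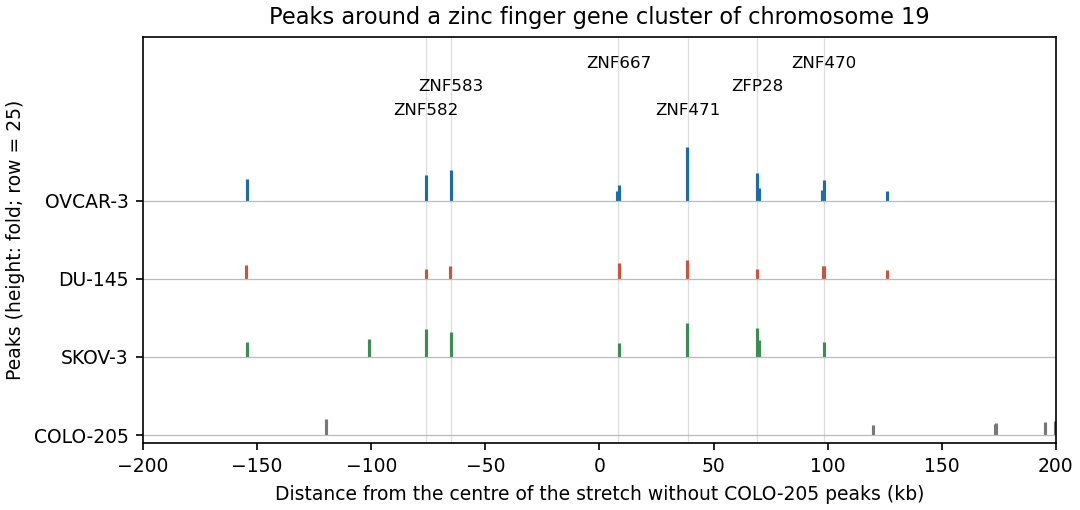
Peaks of the 4 lines around the stretch of chromosome 19 without a COLO-205 peak, by distance from its centre in kb (horizontal axis); each vertical line is 1 peak, with its height from the row's base line as the fold enrichment (1 row step is a fold of 25), and gene names mark the 6 promoter members. At the 6 named genes OVCAR-3, DU-145 and SKOV-3 each have a line, the tallest at ZNF471 in OVCAR-3 at 17.2. Some other lines belong to 1 or 2 of them alone, and the COLO-205 row is empty between the outer peaks.

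The missing share varied by chromosome. It was highest on chromosome 18, with 68 of 161 shared peaks (42.2%, 34.5% to 50.3%), and chromosome 6, with 156 of 381 (40.9%, 36.0% to 46.1%), and, leaving out chromosome Y with its 1 shared peak, lowest on chromosome 13, with 1 of 81 (1.23%), and chromosome 7, with 3 of 46 (6.52%). On chromosome 18 COLO-205 had 313 peaks in all, against 1323 in OVCAR-3, 3580 in DU-145 and 324 in SKOV-3. On chromosome 13 it had 12078 against 353, 249 and 147. On chromosome 6 COLO-205 had 5692 peaks against 1929, 2473 and 798, but they were concentrated in a few windows of 10 Mb, such as 1530 from 40000001 to 50000000, 1499 from 130000001 to 140000000 and 966 from 30000001 to 40000000. The missing share in these windows was 32.4%, 29.4% and 41.0%. In the chromosome 6 window with the highest missing share, among those with at least 15 shared peaks, from 80000001 to 90000000 with 10 of 15 missing (66.7%), COLO-205 had the fewest peaks of the 4 lines, 19 against 62 in OVCAR-3, 54 in DU-145 and 28 in SKOV-3. Over 23 chromosomes the Spearman correlation of the missing share with COLO-205 peaks per Mb was −0.36, given as a description. Copy number was not measured here, and the part of chromosome-wide peak density in the result was not tested. In windows of 10 Mb with at least 15 shared peaks, the missing share was 50% or more in 14 of 161 windows, with a median of 26.8%.

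**Figure D5:**
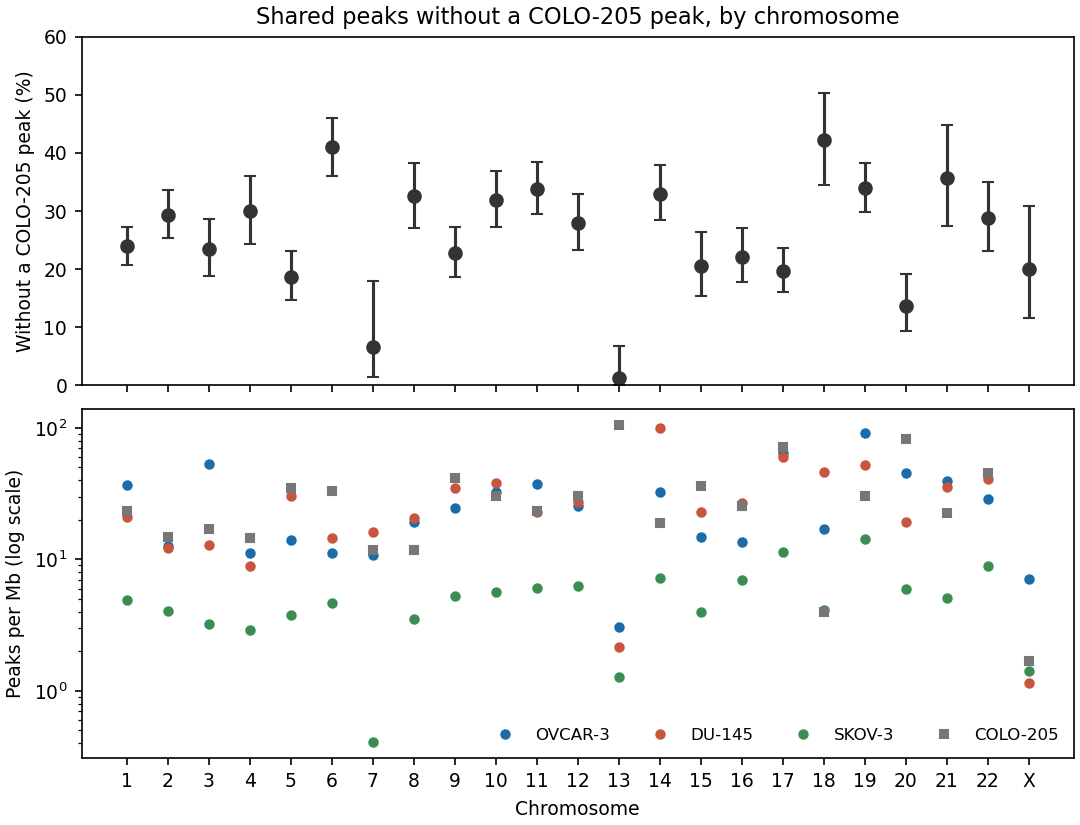
Upper panel: percentage of the shared peaks without a COLO-205 peak on each chromosome, with exact 95% intervals for counting error. Lower panel: peaks per Mb of each line on a log axis. Chromosomes 18 and 6 are highest at 42.2% and 40.9% and chromosome 13 lowest at 1.23%, where COLO-205 has the densest peaks.

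Several neighbouring members, promoter or distal, lay together in stretches without a COLO-205 peak. COLO-205 had 91 stretches of 20 kb or more that held no peak of its own and 3 or more members, with 334 members in all. The longest ran over 5685262 bp of chromosome 6 from 126111800 to 131797061 and held 25 OVCAR-3, 20 DU-145 and 11 SKOV-3 peaks. Its 8 members lay at or nearest to HINT3, RNF146, ECHDC1, PTPRK, L3MBTL3, EPB41L2 and AKAP7, and CCN2 lies beyond its end. PTPRK, a receptor phosphatase of cell contacts, was the strongest in OVCAR-3 with 12.1, 4.26 and 5.67, and RNF146, a ubiquitin ligase, had 9.64, 5.08 and 5.95. On the same chromosome, in the major histocompatibility complex, TAP2, a subunit of the peptide transporter for antigen presentation, had 5.61, 7.78 and 6.37. PSMB8 and PSMB9, the immunoproteasome subunits, share a member with 2.58, 5.25 and 4.56, which is a weak peak in OVCAR-3.

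On chromosome 1, SORT1, which encodes the sorting receptor sortilin, PSRC1 and SARS1 lay in a stretch of 288230 bp without a COLO-205 peak, with SORT1 at 7.01, 3.32 and 4.57. On chromosome 18, ROCK1, a kinase of actomyosin contraction, had 4.91, 7.36 and 5.07, with the nearest at 170677 bp. These genes were picked from the runs after their values were seen.

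The set had a lower GC content than the common peaks. In distal peaks the median GC content of the 301 bases around the OVCAR-3 summit was 55.8%, against 62.1% for distal peaks common to all 4 lists and 53.5% for all distal OVCAR-3 peaks. In promoters it was 67.4%, 72.1% and 66.1%. The median ratio of observed to expected CpG in distal peaks was 0.29 for the set, 0.41 for the common ones and 0.29 for all distal OVCAR-3 peaks. The GC-rich SP and KLF letters GGGCGG, searched like all motifs on both strands, were in 18.9% (16.4% to 21.7%) of the distal members, 41.0% (37.3% to 44.9%) of the common distal peaks and 15.6% of all distal OVCAR-3 peaks.

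The AP-1 letters TGANTCA were in 107 of the 877 distal members (12.2%, 10.1% to 14.6%), in 67 of 675 common distal peaks (9.93%, 7.78% to 12.4%), in 7.15% of the distal peaks missing in SKOV-3 and in 7.24% of all distal OVCAR-3 peaks. Restricted to TGACTCA or TGAGTCA, the shares were 9.35% (7.51% to 11.5%), 7.85% (5.94% to 10.1%) and 5.17% for the members, the common peaks and all distal peaks. So AP-1 letters were more frequent in the members than in the whole list, while the intervals of members and common peaks overlap. Among the distal peaks of the 3 lines, those with AP-1 letters lacked a COLO-205 peak in 61.5% (53.8% to 68.8%) and those without in 55.9% (53.2% to 58.5%), and these intervals overlap too. With 250 bases on each side of the summit the shares were 25.9% of the members, 22.8% of the common and 14.1% of all distal peaks, in the same order. When the DU-145 or SKOV-3 peak and summit was taken in place of the OVCAR-3 one, the share in the members was 9.76% and 9.24%.

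The TEAD letters GGAATG were in 15.1% (12.7% to 17.6%) of the distal members, 14.5% of the common, 10.7% of those missing in SKOV-3, 16.5% (12.4% to 21.3%) of those missing in DU-145 and 12.9% of all distal peaks. In promoters, where the motif is scarcer, AP-1 letters were in 4.05% (2.96% to 5.40%) of the members and 2.66% (2.21% to 3.18%) of the common peaks, and TEAD letters in 11.4% (9.59% to 13.5%) and 7.77% (7.01% to 8.59%). For all OVCAR-3 promoter peaks these were 3.56% and 10.3%, so the members lay close to the whole list. The letters of the intestinal factors CDX (TTTATNG) were in 4.79% of the distal members and 6.05% of all distal peaks, and those of HNF4 (CAAAGTCCA) in 0.228% and 0.272%. Of the other motifs searched in the distal members, the ZEB1 and SNAI2 E-box CAGGTG was in 36.9% against 45.7% of all distal peaks, CCAAT (NFY) in 18.0% against 21.7%, TGACNNNGC (NRF2 and MAF) in 16.5% against 14.9%, ACAAAG (SOX and TCF) in 13.2% against 13.4%, and those of the GATA factors, AGATAA, in 6.16% against 6.28%. RUNX (TGTGGTT) was in 4.56% against 3.77%, ETS (CCGGAAG) in 3.99% against 2.01%, EGR (GCGTGGG) in 3.76% against 3.07% and forkhead (TGTTTAC) in 1.60% against 1.72%. In the common distal peaks and in those missing in SKOV-3, ETS letters were in 5.04% and 3.87%, EGR letters in 8.44% and 5.64%, CAGGTG in 31.1% and 39.3% and CDX letters in 3.26% and 4.40%. The letters of AP-1 and of NRF2 and MAF can overlap each other, and a match of letters is not evidence of a bound site.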

How the data were processed

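H3K27ac ChIP-seq had been done once in each of the 4 lines. Per the submitters' processing notes and the study's methods, the authors mapped reads to hg19 (GRCh37) with Bowtie2 2.1.0 and called narrow peaks per library with MACS2 2.1.0.20150603 at a q-value below 0.001. The deposited lists give, for each peak, a score (10 times the −log10 q), the −log10 p, the −log10 q and the fold enrichment ratio of its summit against the local background. Each value belongs to its own library. According to the methods, peaks under 350 bp apart were merged, but the deposited lists hold closer neighbours and were used as they are. The lists give no read counts. Tag pileups and tag numbers were solved from the fold enrichment and −log10 p (tolerance 0.001 on the −log10 p scale), which worked for at least 99.9% of peaks and was tested on simulated data.

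Peaks overlapped at 1 base or more. Starts and genes came from GENCODE v44 lifted to GRCh37, and sequence from the GRCh37 assembly. Promoter means within 1 kb of a protein-coding start, and motifs were searched in 150 bases on each side of the summit. With 1 library per line no test was run. The members and gene lists were chosen with earlier results of these data known. Named with values are the 12 members with the highest summed percentile of −log10 q, the 10 genes nearest to most members, the strongest 3 promoters per gene list and the peaks at the edge of the rule. Other genes, the zinc finger group and the runs of neighbouring genes were picked after their values were seen. Some genes that these rules select are not reported here. Missing shares were taken by chromosome and 10-Mb window in place of chromosome arms. Sequence was read with samtools 1.23.1, and values were computed in Python 3.11.15 (scipy 1.17.1 for intervals, pandas 2.3.3 and numpy 2.4.6 for tables) and plotted with matplotlib 3.10.9.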

Additional observations from a re-analysis of the deposited data

How the results depend on the processing

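No paired analysis was possible because each line was profiled once. The count of 1963 members was 1380 to 2429 under the other settings, except for 813 when a cut at −log10 q 10 was put on the 3 lines and not on COLO-205, 1170 when DU-145 and SKOV-3 had to cover 50% of the peak and 777 with peaks above the median −log10 q of each of the 3 lists, a setting chosen after seeing the data. The missing share of 27.5% was 31.8% when every list was cut at −log10 q 10, 18.7% with that cut in the 3 lines alone, 24.5% and 21.7% with no COLO-205 peak within 350 bp or 1 kb, 23.5% after merging, 30.0% starting from SKOV-3, 43.7% when all lists were cut to equal numbers of peaks, 18.3% above the medians and, also chosen after seeing the data, 26.4% without chromosomes 6 and 18. The promoter share of 55.3% was 70.7% and 61.6% under the 2 cuts at 10, 80.9% with equal numbers, 58.7% within 2.5 kb and 61.8% above the medians. The AP-1 share of 12.2% was 9.76% starting from DU-145, 9.24% from SKOV-3, 9.47% with equal numbers, 25.9% with 250 bases on each side, 26.6% over whole peaks and 9.76% above the medians. The median OVCAR-3 fold of 7.05 was 8.27 and 8.14 under the cuts at 10, 6.35 with 50% cover, 7.27 after merging, 7.51 and 7.74 from DU-145 and SKOV-3, 9.63 with equal numbers and 8.43 above the medians. All other settings left the shares and the median within counting error. The missing share thus ran from 18.3% to 43.7% over these settings, and the part of sequencing depth was not tested.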
